A study of Mus musculus with 4 samples.

Results

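The genes of cell division examined here are 35 genes of DNA replication, mitosis, the entry into S phase and the DNA damage checkpoint, of the 27968 gene names on a whole-genome mouse array. They were chosen by name, with earlier results of these data known. The array carries 54 probes of 60 bases for them, on 90 spots, with Cdk1 listed under its older symbol Cdc2a. By role, 12 genes belong to DNA replication and S phase (Mcm2 to Mcm7, Pcna, Rrm2, Tyms, Cdc6, Cdt1 and Tk1). A further 15 belong to G2 and mitosis (Mki67, Top2a, Ccna2, Ccnb1, Ccnb2, Cdk1, Cdc20, Bub1, Bub1b, Aurka, Aurkb, Plk1, Birc5, Kif20a and Foxm1). The control of the step from G1 to S has 5 (Ccne1, Ccne2, Ccnd1, Cdkn1a and E2f1), and the DNA damage checkpoint has 3 (Rad1, Hus1 and Chek1).

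Liver RNA came from 4 female mice of the strain labelled BALBc, 2 in the control group and 2 in the group labelled LB1, each on 1 array with 1 dye, Cy3. The livers were taken 20 days after inoculation, in a study of a Lactobacillus isolate from ostrich and its effects on weight, gut bacteria and metabolism. What LB1 stands for, what the control mice received and the age of the mice are not given in the sources used here. The file headers place control replicate 1 and LB1 replicate 1 on one slide (slide 1, scan 1), and control replicate 2 and LB1 replicate 2 on another (slide 2, scan 2).

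Hepatocytes of the adult liver are mostly quiescent, held in G0, and divide after tissue loss or injury, while resident and blood-derived cells divide at their own rates. A cell that enters the cycle uses cyclin D and then cyclin E with their kinases to release E2F factors, which switch on the genes of DNA replication. Later the MuvB complex with B-Myb and FoxM1 switches on the genes of mitosis, whose RNA is made in G2 and M and is nearly absent from resting cells. In a whole liver, fewer dividing cells and less RNA per dividing cell cannot be told apart.

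The start regions of both large groups are shown first because their genes carry different short motifs. The RefSeq promoter table of build GRCm38.p6 (250 bases before to 50 after a gene's start, the first listed start of each gene) held 28 of the 35 genes. Capitals mark the letters TTTCCCGC, TTTCGCGC, TTTGCCGC and TTTGGCGC, which are forms of the E2F site, TTTGAA, the cell cycle homology region (CHR) that MuvB binds, and CCAAT, the box bound by NF-Y, each on either strand. Overlapping matches run together. Ccnb2 (chr9:70421505-70421804, minus strand) and Plk1 (chr7:122159185-122159484, plus strand) stand for mitosis, and Mcm5 (chr8:75109259-75109558, plus strand) and Mcm6 (chr1:128359656-128359955, minus strand) for DNA replication.
Ccnb2: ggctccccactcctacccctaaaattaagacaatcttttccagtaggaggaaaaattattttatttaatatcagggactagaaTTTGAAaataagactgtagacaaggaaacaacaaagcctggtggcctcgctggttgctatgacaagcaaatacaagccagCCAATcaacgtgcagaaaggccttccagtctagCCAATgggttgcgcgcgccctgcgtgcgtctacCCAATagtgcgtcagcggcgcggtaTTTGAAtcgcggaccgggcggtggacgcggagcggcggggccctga
Plk1: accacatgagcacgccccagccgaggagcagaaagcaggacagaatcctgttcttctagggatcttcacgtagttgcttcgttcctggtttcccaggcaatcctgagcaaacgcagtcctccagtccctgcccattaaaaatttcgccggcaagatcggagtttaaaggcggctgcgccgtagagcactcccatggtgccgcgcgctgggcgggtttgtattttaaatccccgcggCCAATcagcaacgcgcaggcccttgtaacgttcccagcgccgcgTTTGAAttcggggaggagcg
Mcm5: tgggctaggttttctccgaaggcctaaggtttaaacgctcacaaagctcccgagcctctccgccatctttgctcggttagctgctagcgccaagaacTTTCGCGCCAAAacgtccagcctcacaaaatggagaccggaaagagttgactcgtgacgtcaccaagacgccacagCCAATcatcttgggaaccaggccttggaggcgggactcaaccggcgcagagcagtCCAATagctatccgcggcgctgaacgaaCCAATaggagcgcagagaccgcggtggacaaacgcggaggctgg
Mcm6: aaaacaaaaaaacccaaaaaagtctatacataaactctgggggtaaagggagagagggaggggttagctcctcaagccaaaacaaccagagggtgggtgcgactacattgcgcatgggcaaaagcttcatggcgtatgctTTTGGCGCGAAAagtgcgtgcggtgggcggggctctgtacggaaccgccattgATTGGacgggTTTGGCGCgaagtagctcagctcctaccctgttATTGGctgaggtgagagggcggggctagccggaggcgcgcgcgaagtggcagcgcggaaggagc

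The cyclin Ccnb2 and the kinase Plk1 each hold CCAAT and TTTGAA, and the helicase subunits Mcm5 and Mcm6 hold E2F words. Over the members, an E2F word was found in 6 of 11 replication genes and 1 of 11 mitotic genes, against 2.32% of 27025 promoters. TTTGAA was found in 1 of 11 replication genes and 8 of 11 mitotic genes, against 18.1% of all promoters. CCAAT was found in 7 of 11 and 10 of 11, against 37.9%. Further lists of genes with these roles had the same order: TTTGAA in 37 of 64 other mitotic and 8 of 46 other replication genes, and an E2F word in 4 of 64 and 10 of 46. An E2F word was also found in 9 of 34 other genes of the G1 to S step and 7 of 33 other checkpoint genes. Among the members of these roles it was found in 0 of 3 and 0 of 3. These are matches of letters, not measured sites.

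Levels are given as log2 of the processed signal relative to the 75th percentile of the same array, so a level of 0 equals that percentile, and a difference is LB1 minus control. The LB1 arrays were dimmer, with a 75th percentile of 146.9 and 80.8 where the control arrays had 410.9 and 414.7. A gene of cell division had a probe well above background (the scanner software's flag) in 34 of 35 cases on each control array, and in 26 and 24 on the LB1 arrays. By role, on control 1, control 2, LB1 1 and LB1 2 in turn, this held for 11, 12, 10 and 10 replication genes and for 15, 14, 12 and 10 mitotic genes. It held for 5, 5, 3 and 3 genes of the G1 to S step, and for 3, 3, 1 and 1 checkpoint genes. None of the probes was saturated. The markers of hepatocytes checked the tissue: all 11 measured, Alb and Hnf4a among them, were well above background on all 4 arrays.

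**Figure D1:**
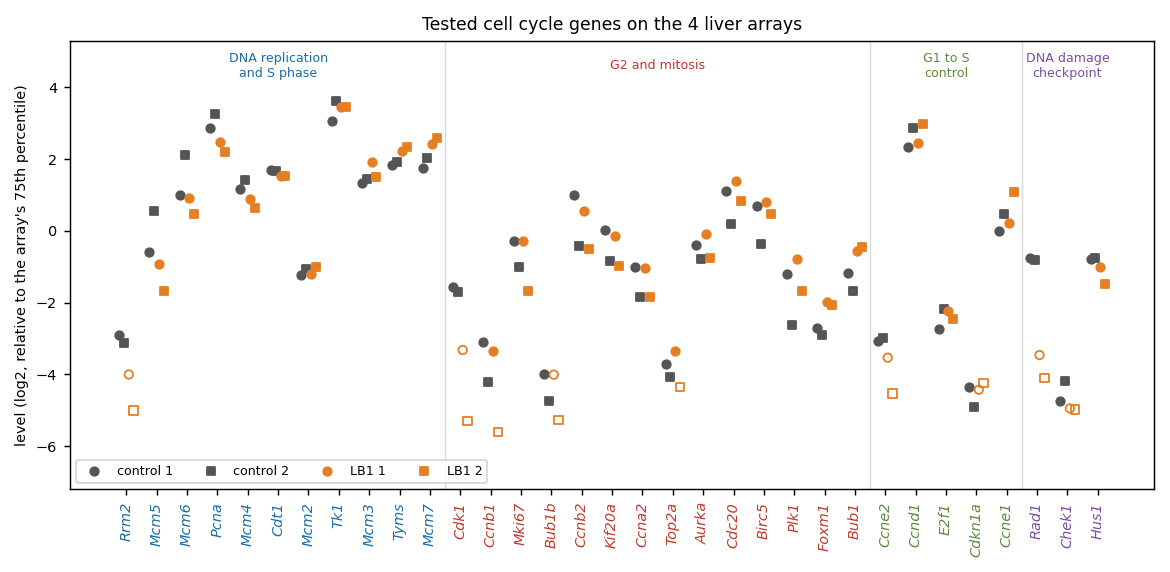
The plot of levels shows the 33 tested genes by role on the x axis and the level on each array on the y axis (log2, scaled as above), with circles for replicate 1, squares for replicate 2, and open symbols for signals not well above background. Open symbols occur on LB1 arrays, and the red group shows circles above squares in both groups of mice.

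LB1 and control livers were compared to see which of these genes differed between the groups. Of 33 tested genes, 3 fell (Rad1, Cdk1 and Rrm2), 1 rose (Foxm1) and 29 did not pass. The test was limma with Benjamini-Hochberg adjustment over all 22958 tested probes, and a gene was read from its brightest probe. Over all 15769 tested genes, 31.5% passed, 21.7% higher and 9.77% lower. The genes of cell division thus passed in 4 of 33 cases, 1 higher and 3 lower. Of the 33, 9 had an unadjusted p under 0.05, as did at least the 31.5% of all genes that passed after adjustment. The LB1 arrays lay above both control arrays at 5 of the 33 genes and below both at 11, against 49.2% and 27.5% of all genes. The median difference over all genes was 0.29, and 0 is therefore not the middle of these arrays.

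The 3 genes that fell had LB1 signals near background on both arrays. They are among 7 tested members (with Bub1b, Ccne2, Cdkn1a and Chek1) that were well above background in control livers alone. Such genes entered the test through the control arrays. Of all 1176 genes of that kind, 18.6% were called lower. Among the 24 members well above background on all 4 arrays, Foxm1 was the one called, against 23.2% of all such genes called higher and 9.38% called lower. With 2 mice a group, the precision is limited by the number of arrays.

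The share of calls depended on how the signal was treated, for the members and for all genes alike. With normexp, 12 of the 33 were higher and 4 lower, against 46% and 20.6% of all genes. On the series table's values 11 were higher and 5 lower, against 46% and 15.8%. With quantile normalization 5 were lower and none higher, against 13.1% and 12.1%. Cyclic loess also gave 5 lower and none higher, against 13.1% and 14.2%. With the array median as reference 11 were lower and none higher, against 25.6% and 7.85%. With the slide as a block 3 were lower and none higher, against 8.79% and 20.9%. The methods' t-test, unadjusted and with a minimum of 2-fold, called 1, against 17%. Of single probes rather than genes, 32.4% of all tested passed in the main setting, and 6 of 42 of the members did. By limma in the main setting, Mcm7, Bub1 and Foxm1 were higher at an unadjusted p under 0.05. Mcm5, Pcna, Rrm2, Cdk1, Ccne2 and Rad1 were lower at that threshold.

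**Figure D2:**
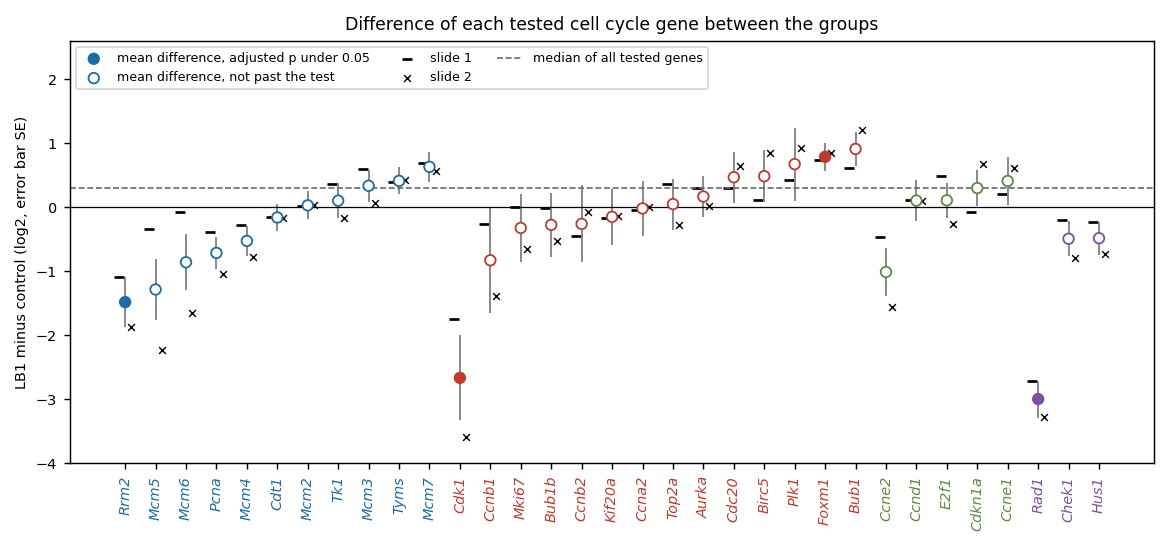
The plot of differences shows LB1 minus control (log2) for the 33 tested genes, with the mean as a circle, its standard error as a bar, the slide 1 difference as a dash and the slide 2 difference as a cross. Filled circles mark Rrm2, Cdk1, Foxm1 and Rad1, and the dashed line is the median of all tested genes at 0.29.

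Among the genes of DNA replication and S phase, 1 of 11 tested genes fell and 10 did not pass. Rrm2, the regulated subunit of ribonucleotide reductase that makes deoxynucleotides (probe at chr12:25398619-25398675, mm9), was at -2.91 and -3.14 on the control arrays and at -4.004 and -5.01 on the LB1 arrays. The groups did not overlap, and the LB1 signals were not well above background. Its difference was -1.48 (SE 0.39, adjusted p = 0.0425), -1.10 on slide 1 and -1.87 on slide 2. Rrm2 was at least 1.38-fold lower in LB1 livers. For such a bound, each dim array entered with the probe's own signal or with the faintest signal that counted as well above background, whichever was higher. It holds for this background correction and scaling only. With normexp background correction the direction turned, to 0.98 (adjusted p = 0.00192), and on the series table's values to 0.66. Without control replicate 1 or 2 the difference was -1.37 and -1.60 and the call was lost (adjusted p = 0.165 and 0.16), in fits that called 14 and 1 of all tested probes lower. It was also lost with trend and robust settings (adjusted p = 0.0501).

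The helicase subunits Mcm2 to Mcm7 form the ring that unwinds DNA at the fork. In the main setting they did not pass the test and did not share a direction. Mcm5 was at -0.59 and 0.55 in control and at -0.93 and -1.68 in LB1 livers, a difference of -1.29 (SE 0.48, adjusted p = 0.0933). Mcm6 was at 0.997 and 2.11 against 0.93 and 0.46. At both genes the LB1 arrays lay below the control arrays, and most of the gap came from slide 2 (-2.23 for Mcm5 and -1.65 for Mcm6, against -0.34 and -0.07 on slide 1). Both were singled out after their values were seen.

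Mcm7 was at 1.74 and 2.02 in control and at 2.43 and 2.59 in LB1 livers, a difference of 0.63 (SE 0.23, adjusted p = 0.0888), with no overlap. Mcm4 differed by -0.53 without overlap (-0.28 on slide 1, -0.78 on slide 2) and Mcm2 by 0.03. On the series table's values Mcm4, Mcm5 and Mcm6 were called lower (adjusted p = 0.0184, 0.0489 and 0.034). The same genes were called lower with the array median as reference (adjusted p = 0.0205, 0.000405 and 0.00464). With normexp Mcm4 was called lower (-0.73, adjusted p = 0.00884) and Mcm2 higher (0.42, adjusted p = 0.0237). The probes of Mcm3 disagreed. The brighter one was at 1.33 and 1.43 against 1.93 and 1.51 (difference 0.33), and the other at -1.54 and -0.94 against -1.66 and -2.02 (difference -0.60), neither past the test. The other Mcm4 probe was not well above background on any of the 4 arrays.

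Pcna, the sliding clamp of the replication fork, was at 2.86 and 3.25 in control and at 2.47 and 2.21 in LB1 livers, so LB1 lay below control without overlap. Its difference of -0.71 (SE 0.26, adjusted p = 0.0849) did not pass, while with normexp it was -1.13 and passed (adjusted p = 0.0045). Pcna also passed on the series table's values (-0.96, adjusted p = 0.00419) and with the array median as reference (-1.35, adjusted p = 0.00759). It passed with trend and robust settings too (adjusted p = 0.0456). Quantile normalization, cyclic loess and the slide as a block left it short of the threshold (adjusted p = 0.0599, 0.0567 and 0.115). Its 10 repeat spots on each array had SDs of 0.03 to 0.08, which is the spread within an array and not that between mice.

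The thymidine enzymes did not pass the test. Tk1, thymidine kinase of the salvage route, was at 3.08 and 3.62 against 3.44 and 3.46, and the groups overlapped (difference 0.10, SE 0.27). Tyms, thymidylate synthase, was at 1.83 and 1.91 against 2.23 and 2.33 at its brightest probe (difference 0.41, SE 0.21, adjusted p = 0.18). The second Tyms probe was at 1.42 and 1.55 against 1.70 and 1.58 (difference 0.15, SE 0.21). These probes are shown because they overlap, with the shared letters in capitals (mm9, minus strand, chr5:30387625-30388518 with a gap and chr5:30387605-30387664).
Tyms second probe: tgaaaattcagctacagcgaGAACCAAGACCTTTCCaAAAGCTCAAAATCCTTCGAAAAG
Tyms brightest probe: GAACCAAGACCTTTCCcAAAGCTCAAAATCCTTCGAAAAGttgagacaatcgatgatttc
They share 40 positions, of which 39 match. The difference is A37C, counted from the 5′ end of the second probe. The probes therefore read nearly the same stretch, and their differences were 0.41 and 0.15. The last Tyms probe was not well above background on any array.

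Licensing of origins is represented by Cdt1 and Cdc6, which load the helicase. Cdt1 was at 1.69 and 1.68 in control and at 1.53 and 1.52 in LB1 livers, a difference of -0.16 (SE 0.21, adjusted p = 0.563). Cdc6 was not tested, because its probes were not well above background on both arrays of either group.

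In G2 and mitosis, 1 of 14 tested genes fell, 1 rose and 12 did not pass. Cdk1, the kinase that drives entry into mitosis, was at -1.57 and -1.71 in control and at -3.32 and -5.30 in LB1 livers. Both LB1 arrays lay below both control arrays, but neither LB1 signal was well above background. The difference was -2.67 (SE 0.66, adjusted p = 0.0386), -1.75 on slide 1 and -3.59 on slide 2. In the main setting Cdk1 was at least 3.22-fold lower. This bound does not carry over to normexp or the series table's values, which are given below.

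The Cdk1 call rests on 1 probe, shown here with the coordinates of the files (mm9, chr10:68805423-68807832, minus strand). Its 60 bases extend over 2410 bases of genome, so it joins separate blocks of the gene.
Cdk1: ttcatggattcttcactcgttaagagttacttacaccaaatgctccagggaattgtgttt
The other Cdk1 probe was not well above background on any array. With normexp the Cdk1 difference turned to 0.19 (adjusted p = 0.187), and on the series table's values it was -0.27 (adjusted p = 0.219). Without control replicate 1 or 2 the difference was -2.60 and -2.74 and the call was lost. Very few of all tested probes passed with 1 control array, so this loss is not particular to Cdk1.

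Foxm1, the forkhead factor that activates mitotic genes (probe at chr6:128324783-128324842, mm9), was at -2.72 and -2.91 in control and at -1.99 and -2.07 in LB1 livers. It was well above background on all 4 arrays, and both LB1 arrays lay above both control arrays. The difference was 0.79 (SE 0.22, adjusted p = 0.0483), 0.73 on slide 1 and 0.84 on slide 2. The sign was kept under every scaling tried, but the call was lost with quantile normalization (0.47, adjusted p = 0.123), the array median as reference (0.15, adjusted p = 0.802), cyclic loess (0.61, adjusted p = 0.077), trend and robust settings (adjusted p = 0.083) and the slide as a block (adjusted p = 0.0668). Without any 1 of the 4 arrays the difference was 0.69 to 0.88 and the call was not kept. With 1 control array left, very few of all tested probes passed, so that loss is not particular to Foxm1.

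Bub1, a kinase of the spindle checkpoint, was at -1.18 and -1.67 in control and at -0.57 and -0.46 in LB1 livers, with no overlap. Its difference of 0.91 (SE 0.26, adjusted p = 0.0525) missed the threshold. Bub1 passed with normexp (adjusted p = 0.00866) and on the series table's values (adjusted p = 0.00622). It passed with trend and robust settings (adjusted p = 0.0408) and among probes well above background on all arrays (adjusted p = 0.0293). Cyclic loess and quantile scaling left it short of the threshold (adjusted p = 0.0548 and 0.0576). The slide as a block gave an adjusted p of 0.0665. Scaled to the array median, the difference shrank to 0.27 (adjusted p = 0.629). Leaving out 1 array gave differences from 0.66 to 1.16. Bub1b, which holds back the anaphase-promoting complex, differed by -0.28 and was not well above background on the LB1 arrays.

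The remaining mitotic genes overlapped between the groups. Ccna2, cyclin A, which acts from S phase into G2, was at -0.99 and -1.85 in control and at -1.03 and -1.86 in LB1 livers. Ccnb2, cyclin B2, was at 1.002 and -0.43 against 0.55 and -0.51, and Plk1, a kinase of spindle assembly, at -1.20 and -2.61 against -0.78 and -1.69. The differences of these 3 genes were -0.02 (SE 0.43), -0.26 (SE 0.60) and 0.67 (SE 0.57). In each group the first replicate lay above the second, and this gap was wider than that between the group means. They were singled out after their values were seen.

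Mki67, which coats mitotic chromosomes and is the usual marker of dividing cells, had probes that disagreed. The brighter was at -0.29 and -1.02 against -0.28 and -1.67 (difference -0.32, SE 0.54), and the other at -2.63 and -3.23 against -2.44 and -2.63 (difference 0.40, SE 0.29). Neither passed. The activator of the anaphase-promoting complex Cdc20 differed by 0.47, the survivin gene Birc5 by 0.48, the spindle kinase Aurka by 0.17, the kinesin Kif20a by -0.15 and the topoisomerase Top2a by 0.05. Ccnb1, cyclin B1, differed by -0.83 (SE 0.82) and was well above background on 1 LB1 array. Aurkb was well above background on 1 array and was not tested.

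Between the mice of a group, the mitotic genes differed together. This was noticed in the values and is described without a test. Of 10 mitotic genes well above background on all arrays, control replicate 1 was above control replicate 2 at 10 and LB1 replicate 1 above LB1 replicate 2 at 9, with Bub1 the exception. The median gaps were 0.86 (range 0.19 to 1.44) in control and 0.75 (range -0.11 to 1.39) in LB1 livers. The LB1 gap was 0.29 with normexp, 0.29 on the series table's values and 0.40 with the array median as reference. Of 10 replication genes, the first replicate was above at 1 and 6, with median gaps of -0.26 and 0.13. Over all 13159 such genes, it was above at 43.2% and 48.1%, with medians of -0.04 and -0.02.

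Mitotic genes outside the 35 had smaller gaps of the same sign: the first replicate was above at 28 and 30 of 41, with medians of 0.15 and 0.20. Other replication genes had it above at 8 and 24 of 45, with medians of -0.23 and 0.05. Scaled to the array median, which moves the median gap of all genes by -0.26 and -0.35, the mitotic members were above at 9 and 7 of 10, while the other mitotic genes were above at 15 and 14 of 41, with medians of -0.11 and -0.15. The mice of each number share a slide, so mouse and slide cannot be told apart.

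**Figure D3:**
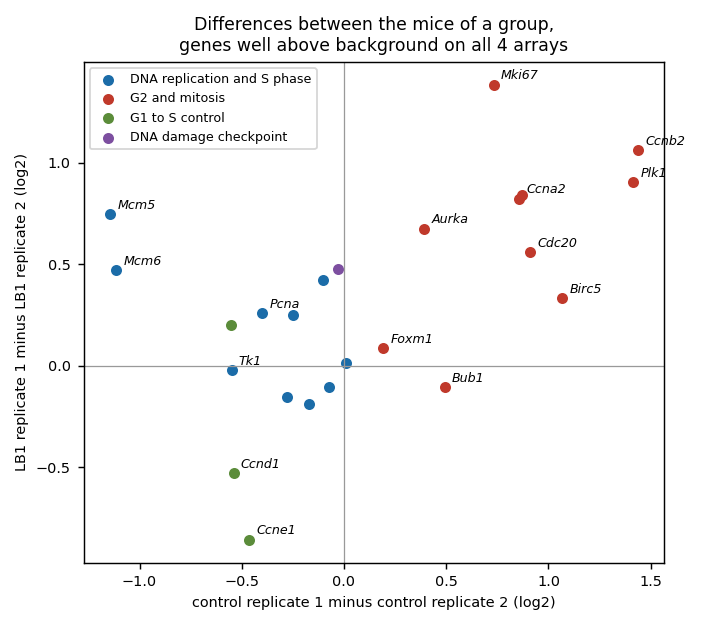
The plot of differences between mice shows the 24 members well above background on all 4 arrays, with control replicate 1 minus control replicate 2 on the x axis and LB1 replicate 1 minus LB1 replicate 2 on the y axis (both log2). The 10 mitotic genes lie to the right of 0 with Bub1 alone below 0, and Mcm5 and Mcm6 lie at the left.

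The summed level of the 15 mitotic genes, on a linear scale where 1 is the array's 75th percentile, was 10.54 and 5.67 in control and 10.9 and 7.004 in LB1 livers. For the 12 replication genes it was 33.8 and 44.7 against 38.0 and 36.2. Both sums overlapped between the groups.

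S phase genes were set against mitotic genes by their medians. Relative to the median of all genes, replication genes lay at -0.46 (-0.37 on slide 1, -0.44 on slide 2) and mitotic genes at -0.28 (-0.24 and -0.31), a gap of -0.18 on the log2 scale. The replication median stayed below that of all genes in every setting, from -1.38 without a filter to -0.25 with quantile normalization. The mitotic median turned to 0.05 with normexp, to 0.10 without control replicate 1 and to 0.14 without LB1 replicate 2. The gap turned to 0.13 without control replicate 2 and to 0.28 without LB1 replicate 1. Its sign therefore changed with single arrays left out. By slide the gap was -0.128 on slide 1 and -0.125 on slide 2.

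At the step from G1 to S, all 5 genes were tested and none passed at its brightest probe, while 1, Ccne2, had an unadjusted p under 0.05. Ccnd1, cyclin D1, which responds to growth factors, was at 2.34 and 2.88 in control and at 2.45 and 2.98 in LB1 livers. The groups overlapped (difference 0.10, SE 0.32), and the 10 repeat spots had SDs of 0.04 to 0.07 on each array, well under the gap between the mice of a group. Ccne1, cyclin E1, differed by 0.41 and 0.45 at its probes.

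Ccne2, cyclin E2, had a probe that passed. That probe was at -4.48 and -4.09 in control and at -5.66 and -5.46 in LB1 livers (difference -1.27, SE 0.25, adjusted p = 0.0262), with no overlap. It was not well above background on the LB1 arrays, and its control level was too near the detection limit for a fold. The brighter probe was at -3.07 and -2.98 against -3.53 and -4.54 (difference -1.01, adjusted p = 0.0949). Its direction turned with normexp (0.97) and on the series table's values (0.71), and that of the probe that passed turned to 1.28 with normexp.

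Cdkn1a, the p21 inhibitor of cyclin-dependent kinases, and E2f1, the activating E2F factor, show the limit set by dim signals. Of 10 Cdkn1a spots, 10 and 6 stood well above background in the control livers and 0 and 2 in the LB1 livers. The SD of the spots was 0.14 and 0.22 in control and 0.59 and 0.85 in LB1 livers, against a difference of 0.30 (SE 0.28). Cdkn1a passed as higher with normexp (1.44, adjusted p = 0.000846) and on the series table's values (1.26, adjusted p = 0.000842). Its direction turned without a call with quantile normalization (-0.73), the array median as reference (-0.34) and cyclic loess (-0.60). The E2f1 probe with repeat spots had SDs of 0.14 and 0.09 against 0.30 and 0.46, with 10, 10, 8 and 0 spots well above background. It differed by 0.85 (adjusted p = 0.0883) and the brighter E2f1 probe by 0.11 (adjusted p = 0.782), which passed as higher with normexp (0.80, adjusted p = 0.00764) and on the series table's values (0.61, adjusted p = 0.0258).

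**Figure D4:**
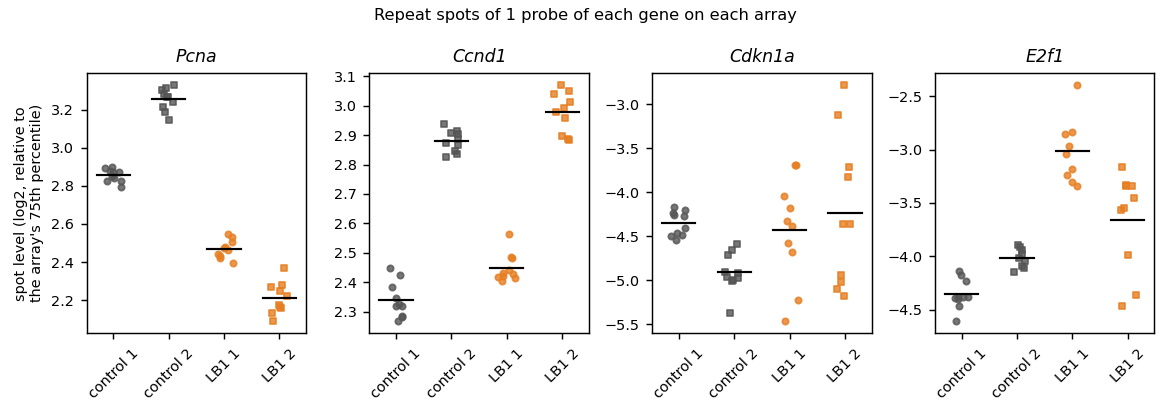
The plot of repeat spots shows up to 10 spots of 1 probe of Pcna, Ccnd1, Cdkn1a and E2f1 on each array (x axis), with the spot level on the y axis (log2, scaled as above, a different range in each panel) and bars at the mean. The spots of Pcna and Ccnd1 are tight on all arrays, and those of Cdkn1a and E2f1 spread out on the LB1 arrays.

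In the DNA damage checkpoint, Rad1 fell, and Hus1 and Chek1 did not pass at their brightest probes. Rad1, Hus1 and Rad9 form a ring clamp that is loaded at damaged DNA and activates the checkpoint kinase ATR. Rad1 was at -0.75 and -0.82 in control and at -3.46 and -4.10 in LB1 livers. The groups were far apart, but neither LB1 signal was well above background. The difference was -3.00 (SE 0.29, adjusted p = 0.0201), -2.72 on slide 1 and -3.28 on slide 2. In the main setting Rad1 was at least 6.14-fold lower. The fall was smaller with normexp (-0.56) and on the series table's values (-0.95), so this bound does not carry over to them.

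The 1 Rad1 probe is shown with its position in the files (mm9, chr15:10420013-10420072, plus strand).
Rad1: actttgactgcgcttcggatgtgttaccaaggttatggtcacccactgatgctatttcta
Rad1 was lower in every setting that tested it. The difference was -0.56 with normexp (adjusted p = 0.0067) and -0.95 on the series table's values, and it passed in both. Without control replicate 1 or 2 the difference was -2.96 and -3.03 and the call was lost. Very few of all tested probes passed with 1 control array, so this loss is not particular to Rad1.

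Of the partners of Rad1 in the clamp, the 3 Hus1 probes disagreed, at -0.49 (adjusted p = 0.189), 0.61 (adjusted p = 0.205) and 1.03 (SE 0.26, adjusted p = 0.0398). The brightest was at -0.78 and -0.75 in control and at -1.02 and -1.49 in LB1 livers. The one that passed was at -4.01 and -4.31 against -3.33 and -2.94. Its LB1 signals, 14.6 and 10.6, were near the faintest that counted as well above background on those arrays (11.8 and 7.98). It missed the threshold with the slide as a block (adjusted p = 0.0566), quantile normalization (adjusted p = 0.536) and the array median as reference (adjusted p = 0.476). Cyclic loess (adjusted p = 0.227) and trend and robust settings (adjusted p = 0.0808) also left it short. That probe passed as higher with normexp (1.42), on the series table's values (1.25) and with the filter on all 4 arrays (adjusted p = 0.0204). Rad9a, which is not among the 35, was at -1.89 and -1.92 against 0.42 and 0.98, and rose by 2.605 (SE 0.27, adjusted p = 0.0201). Its paralog Rad9b was at least 1.17-fold lower in the main setting, with LB1 signals not well above background. With normexp Rad9b was called higher (0.95, adjusted p = 0.00162). Chek1, the kinase downstream of ATR, was not well above background on the LB1 arrays (difference -0.49, SE 0.27, adjusted p = 0.206), and turned to 1.39 with normexp.

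**Figure D5:**
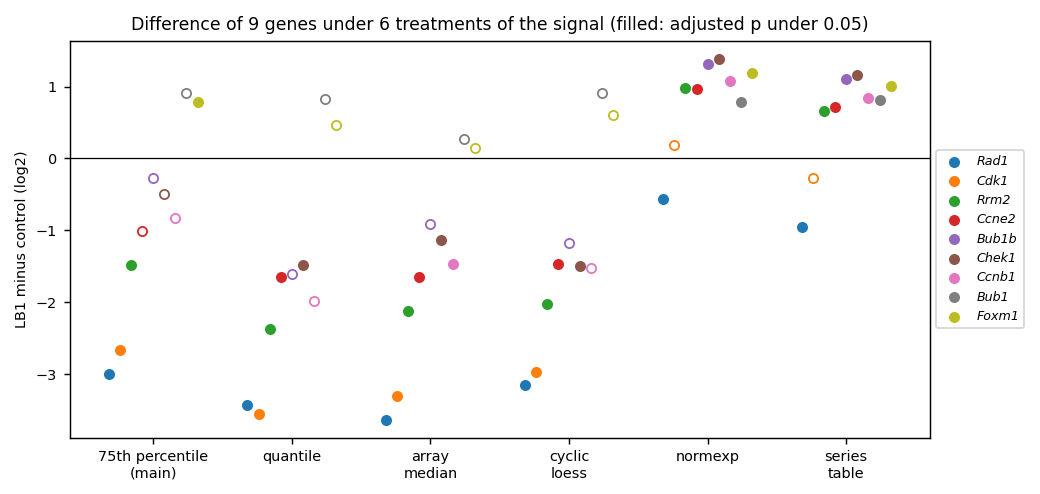
The plot of settings shows LB1 minus control (log2, y axis) for 9 genes under 6 treatments of the signal (x axis), filled where the adjusted p is under 0.05. Rad1 stays below 0 and Foxm1 and Bub1 above 0 throughout, while Rrm2, Ccne2, Bub1b, Chek1 and Ccnb1 lie below 0 in the first 4 treatments and above 0 with normexp and the series table.

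Wider lists of genes with the same roles are given by counts, to be read against the 21.7% of all genes that were higher and the 9.77% that were lower. Of 52 other DNA replication genes, 1 rose (Rfc2, a clamp loader subunit, by 1.02) and 5 fell, among them Dck, deoxycytidine kinase, at -1.35, and the polymerase subunit Pole2, at least 1.49-fold lower. The list median was -0.40 against all genes. Of 57 other mitotic genes, 7 rose and 6 fell, with a median of -0.09. Smc2, a condensin subunit, rose by 1.47 and the kinesin Kif22 by 1.29. Wee1, the kinase that inhibits Cdk1, was at least 1.83-fold lower and the mitotic kinase Pbk at least 1.35-fold lower. The bounds of Pole2, Wee1 and Pbk are those of the main setting, and the direction of these genes turned with normexp.

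Of 38 other genes of the G1 to S step, 9 rose and 6 fell, with a median of -0.22. E2f2, an activating E2F factor, was at -0.30 and -0.70 in control and at 1.91 and 1.67 in LB1 livers, a rise of 2.29 (SE 0.25, adjusted p = 0.0201). The antiproliferative gene Btg2 rose by 1.57, and Cul1, the scaffold of the SCF ubiquitin ligase, and Cdk7, the kinase that activates other cyclin-dependent kinases, differed by -1.79 and -2.36. Of 37 other checkpoint genes, 7 rose and 7 fell, with a median of -0.30. Rad9a rose as given above and Bbc3, a p53 target that promotes cell death, by 1.45, while Rad50, of the double-strand break complex MRN, differed by -1.43. Neither LB1 array had Pole2, Pbk, Wee1 or Rad9b well above background, and these genes entered the test through the control arrays. Pole2, Pbk, Wee1, Rad9b and Rad50 turned above 0 with normexp (0.80, 0.87, 0.78, 0.95 and 0.08), and the calls of Dck and Rfc2 were lost (adjusted p = 0.0517 and 0.0982). Rfc2 also missed the threshold with quantile normalization (adjusted p = 0.0809) and cyclic loess (adjusted p = 0.0874). With the array median as reference the calls of Rfc2, Smc2, Kif22, Btg2 and Bbc3 were lost, with adjusted p from 0.066 to 0.486. The next counts of these lists are in the order replication, mitosis, G1 to S and checkpoint. With normexp they had 14, 33, 14 and 19 genes higher and 9, 5, 11 and 4 lower, against 46% and 20.6% of all genes. With the array median they had 0, 1, 1 and 3 higher and 20, 16, 12 and 15 lower, against 7.85% and 25.6%.

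Markers of other cells were counted in the same comparison, where 21.7% of all genes were higher and 9.77% lower. Of 10 tested mesothelial markers 9 were higher in LB1 livers, with a summed level of 120.0 and 132.9 in control and 278.4 and 382.2 in LB1 livers. Most of that sum was Krt18, a keratin that hepatocytes also make, and without it the sum was 3.42 and 1.82 against 17.9 and 53.1. Of 7 B cell and plasma cell markers 3 were higher (1.74 and 1.94 against 3.17 and 3.55), and of 8 T and NK cell markers 2 (1.07 and 1.19 against 1.80 and 1.63), where 21.7% of all genes were higher. The T and NK list had 8 higher with normexp, against 46% of all genes. It had 0 higher and 1 lower with quantile scaling (12.1% and 13.1% of all genes) or array median scaling (7.85% and 25.6%). Of 9 macrophage markers 1 was higher and 1 lower (64.7 and 71.0 against 72.4 and 77.1). Of 8 sinusoidal endothelial markers 2 were higher and 1 lower, and the sums overlapped (46.2 and 50.8 against 49.4 and 40.8). Of 9 stellate cell markers 3 were higher (82.1 and 76.0 against 99.97 and 114.3). Of 5 cholangiocyte markers 3 were higher and 1 lower (3.95 and 4.25 against 4.94 and 11.5), with Krt7 and Krt19 shared with the mesothelial list.

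Of 4 tested markers of erythroid precursors, Alas2 and Hba-a1 were higher and Tfrc lower. The other, Klf1, was well above background on all 4 arrays and did not pass (difference -0.44, adjusted p = 0.297). The summed level of the list was 158.0 and 91.6 against 543.1 and 625.7. Hba-a1 made most of that sum and was saturated on 1 array, and without it the sum was 7.70 and 6.10 against 34.1 and 31.4. Neither LB1 array had Tfrc well above background, and with normexp none of the 4 was lower. The red cell markers Epb42, Rhag and Ermap were not well above background on any array. Of 11 hepatocyte markers, 5 were called higher and 1 lower, but the 5 were saturated on 2 or 4 arrays and no direction is read from them. With quantile normalization 0 were higher and 2 lower, against 12.1% and 13.1% of all genes. The part of these cells, and of the dimmer LB1 arrays, in the differences of the cell cycle genes was not tested.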

How the data were processed

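The authors hybridised 4 liver RNAs to 1-colour Agilent 4x44K arrays. The deposited files hold spot intensity on a linear scale, made with Feature Extraction 10.5.1.1 per the file headers, which differ from the version in the design text. The deposited series table holds the mean spot intensity, rounded, without scaling between arrays. Control spots and outlier spots were dropped. From the log2 of the processed signal the array's 75th percentile, over 43379 non-control spots, was subtracted, and repeat spots were averaged to 41174 probes. Probes that were well above background throughout at least 1 group (22974) were fitted, less 16 without a usable value on every array. The fit was limma 3.58.1 (lmFit and eBayes) in R 4.3.3, with Benjamini-Hochberg adjustment and a threshold of 0.05. It was tested on simulated data. A gene was read from its brightest probe. Probes were named through accessions and symbols of RefSeq (GRCm38.p6), and 8446 kept the file's name. Probe positions are those of the files (mm9). A marker of the erythroid list is not reported here by name.

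The 35 genes, the wider lists and the alternatives were chosen with earlier results of these data known. Each array's values are given for members with a probe past the test or probes of differing direction, and for the 6 brightest, and of each wider list the 2 called genes with the smallest p in each direction. The replicate number is also the slide, with 1 array of each group on it. Deviations of same-numbered arrays correlated at 0.151 across probes. With 2 pairs and no label for it, the number was not taken as a pairing, and slide is given as a block. The labels name separate mice. Alternatives were normexp (offset 50), quantile, array median and cyclic loess scaling, other filters, trend and robust settings, the series table (log2 of value + 1), the block, the methods' t-test, the mean over probes, and each array left out.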

Additional observations from a re-analysis of the deposited data

How the results depend on the processing

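Background correction and scaling moved the counts of calls, and the cause was not tested. Over all probes, 4406 were higher and 3027 lower. With normexp these were 11344 and 4640, with the array median 1650 and 7117, and in the methods' t-test (unadjusted, at least 2-fold) 2228 and 1881, none of them after Benjamini-Hochberg. Quantile normalization gave 2451 higher, no filter 17541, and 10706 came from the series values. Leaving out 1 array gave 0 to 6010 higher and 1 to 5017 lower. Without control replicate 1 it was 125 and 14 and without control replicate 2 it was 0 and 1, where the lone control is assumed to vary like the LB1 pair.

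Of the cell cycle genes, 1 was higher and 3 lower. The higher count was 12 with normexp, 11 on the series table, and 2 with the filter on all 4 arrays and with trend and robust settings. It was 0 with quantile, array median and cyclic loess scaling, with the replicate block and in the t-test. By limma on all arrays, 9 genes had an unadjusted p under 0.05, against at least 31.5% of all genes. The lower count was 5 with quantile and cyclic loess scaling and on the series table, 11 with the array median, 0 with the filter on all 4 arrays, 1 in the t-test and 0 to 5 without 1 array. With the replicate block, adjusted p was 0.0308 for Rad1, 0.0321 for Cdk1, 0.0343 for Rrm2 and 0.0668 for Foxm1. The block changed no other call at the brightest probes. Cyclic loess was added after seeing the data.

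Directions that turned, with a call before or after, were, with normexp, Rrm2 0.98, Ccnb1 1.08, Cdk1 0.19, Bub1b 1.32, Ccne2 0.97 and Chek1 1.39, and on the series table Rrm2 0.66, Ccnb1 0.84, Bub1b 1.101, Ccne2 0.71 and Chek1 1.16. Each was not well above background on at least 1 LB1 array. Over the 33 genes and all alternatives, 295 values kept their direction and side of the threshold, 36 gained a call, 17 lost one, and 72 turned sign, 61 of them without a call on either side and 50 at genes well above background on all 4 arrays.

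The replication median against all genes was -0.46, and -0.79 with normexp, -0.25 with quantile, -0.27 with cyclic loess, -1.38 without a filter, -0.40 with the filter on all 4 arrays, -0.61 on the series table and -0.37 with the mean over probes. The mitotic median, -0.28, was in the same order 0.049, -0.23, -0.20, -0.98, -0.015, -0.060 and -0.17, and -0.19 without Mki67 and Ccna2, with -0.72 to 0.14 without 1 array. Their gap, -0.18, was -0.84, -0.020, -0.077, -0.39, -0.38, -0.55 and -0.20, and -0.27 without Mki67 and Ccna2, with -0.60 to 0.28 without 1 array.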

Other observations

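Outside the 35 genes, Gadd45g, a stress-induced gene that slows the cell cycle, had the widest difference of the checkpoint list and was singled out after its values were seen. It was at 3.44 and 2.72 on the control arrays and at 4.995 and 8.07 on the LB1 arrays, so the LB1 mice differed from each other by more than the control mice did from LB1 replicate 1. Its difference of 3.45 (SE 1.02, adjusted p = 0.0561) did not pass. Cdc25b, the phosphatase that activates Cdk1, was at -0.68 and -2.05 against 0.67 and 0.26 and rose by 1.84 (SE 0.50, adjusted p = 0.0462), but with quantile normalization the call was lost (adjusted p = 0.0529). Chaf1b, a chromatin assembly factor that places histones on new DNA, was at -0.52 and 0.52 against 0.59 and 1.80. It did not pass in the fit without the slide (1.196, adjusted p = 0.143), and passed with the slide as a block (adjusted p = 0.0345).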
